A study of Mus musculus with 6 samples.

Results

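The 9 genes described here are Parp1, Parp3, Parp8, Parp9, Parp10, Parp11, Parp12, Parp14 and Dtx3l, taken by name from the 24493 gene symbols of the expression table. They cover ADP-ribosyltransferases that add single ADP-ribose units, the ubiquitin ligase gene Dtx3l whose protein partners PARP9, and Parp1 as a constitutively expressed member of the family. All 9 were found, and 8 of them reached the mean of 1 TPM over all libraries that was needed for the test across genes, with Parp12 below it. Messenger RNA had been sequenced from mouse CD4 T cells that were taken as naive cells from spleen and cultured under conditions that drive them towards regulatory T (Treg) cells. There were 3 libraries with the genotype Ifnar1-SA and 3 wild-type (WT) libraries, and both groups went through the same differentiation. The protein made from Ifnar1 is a subunit of the receptor for type I interferons. In published work Ifnar1-SA is a knock-in allele whose receptor has an alanine in place of a serine that is phosphorylated to start receptor degradation. The sources used here do not give age, sex, strain background or any added interferon, and no label ties a library to its own mouse or culture, so p-values measure the spread between these libraries, which may be technical.

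ADP-ribosyltransferases of the PARP family move ADP-ribose from NAD onto proteins and nucleic acids. PARP1 builds long chains at DNA breaks, whereas most other family members attach a single unit. Several of those single-unit enzymes are encoded by interferon-stimulated genes, which the receptor switches on through transcription factors such as STAT2 and IRF9. The PARP9 and DTX3L proteins form a complex that joins ubiquitin and ADP-ribose chemistry in DNA repair and in interferon responses, and PARP14 carries macrodomains that bind ADP-ribose. In mouse lymphocytes PARP14 is known as a coactivator of the interleukin-4 signal transducer STAT6.

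The unit of all levels is TPM, the share of a library's transcripts corrected for transcript length, so levels of different genes can be set side by side while the number of reads behind each is unknown. Across the genes tested, Pearson's r of log2(TPM + 1) was 0.948 to 0.961 among Ifnar1-SA libraries, 0.944 to 0.960 among WT libraries and 0.939 to 0.966 between the genotypes. Of the 9 pairings between genotypes, Ifnar1-SA 1 and WT 2 had the highest r of the deviations from their genotype means (0.248). Deviations within a genotype of 3 libraries sum to 0, so the 9 values are tied and this r shows no shared handling. The log2 fold change of each of the 9 genes is also given without both of these libraries. The Y-linked gene Eif2s3y was at 0 TPM in WT 3 and at 10.9 to 23.2 TPM in the other 5 libraries. WT 3 may thus come from a mouse of another sex than the others. The part of sex in the genotype differences was not tested. The 7 T cell markers found summed to 2070 to 2320 TPM in Ifnar1-SA and 1940 to 2071 TPM in WT. Of the 9 Treg cell markers tested, 4 had a higher and 5 a lower mean log2 value in Ifnar1-SA and 0 passed the adjusted threshold. Ctla4, an inhibitory receptor of activated and regulatory T cells, was at 762 to 876 TPM in Ifnar1-SA and 482 to 698 TPM in WT. Of the 7 T cell markers, 5 had a higher and 2 a lower mean log2 value in Ifnar1-SA and 0 passed the adjusted threshold. The T cell receptor complex genes Cd3d and Cd3g lay higher in Ifnar1-SA without overlap, 2 of 7 markers beside 1.97% of all genes tested. Cd3e of the same complex overlapped, with a log2 fold change of −0.16. Foxp3, the transcription factor that defines Treg cells, was at 0.746, 1.82 and 0.759 TPM in Ifnar1-SA libraries and at 0.697, 0.295 and 0.276 TPM in WT libraries, so the defining marker of the labelled cell type was near 0. In bulk RNA, fewer cells of a type and less RNA per cell cannot be told apart.

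Of the 8 members in the limma fit on log2(TPM + 1), 0 passed a Benjamini-Hochberg adjusted p of 0.05 over the 12141 genes tested, where 7 genes (0.0577%) passed in either direction. The adjusted p was 0.9997 for each of the 8. Before adjustment, Parp14 and Parp10 had a p under 0.05 and were higher in Ifnar1-SA, which makes 2 of 8 members beside 1.44% of all genes tested. The same 2 members had Ifnar1-SA libraries that all lay above all WT libraries, beside 1.97% of all genes, and 0 of 8 had all Ifnar1-SA libraries below, beside 3.8%. By mean log2 value 6 of the 8 were higher and 2 (Parp8 and Parp1) lower in Ifnar1-SA, with Parp1 turning to higher under 3 other scalings, whereas 37.1% of all genes tested were higher. The median log2 fold change of the 8 was 0.10, beside −0.06 for all genes tested. This background also moved with scaling. The median of all genes was −0.0027 with median-of-ratios, 0.0002 with TMM and 0.0015 with quantile scaling, beside 0.16 for the 8 members in each. The 37.1% thus holds for TPM without further scaling, and the share was not counted under the other scalings. The members had been put together with earlier results of these data known, so these shares describe them and carry no separate test.

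**Figure D1:**
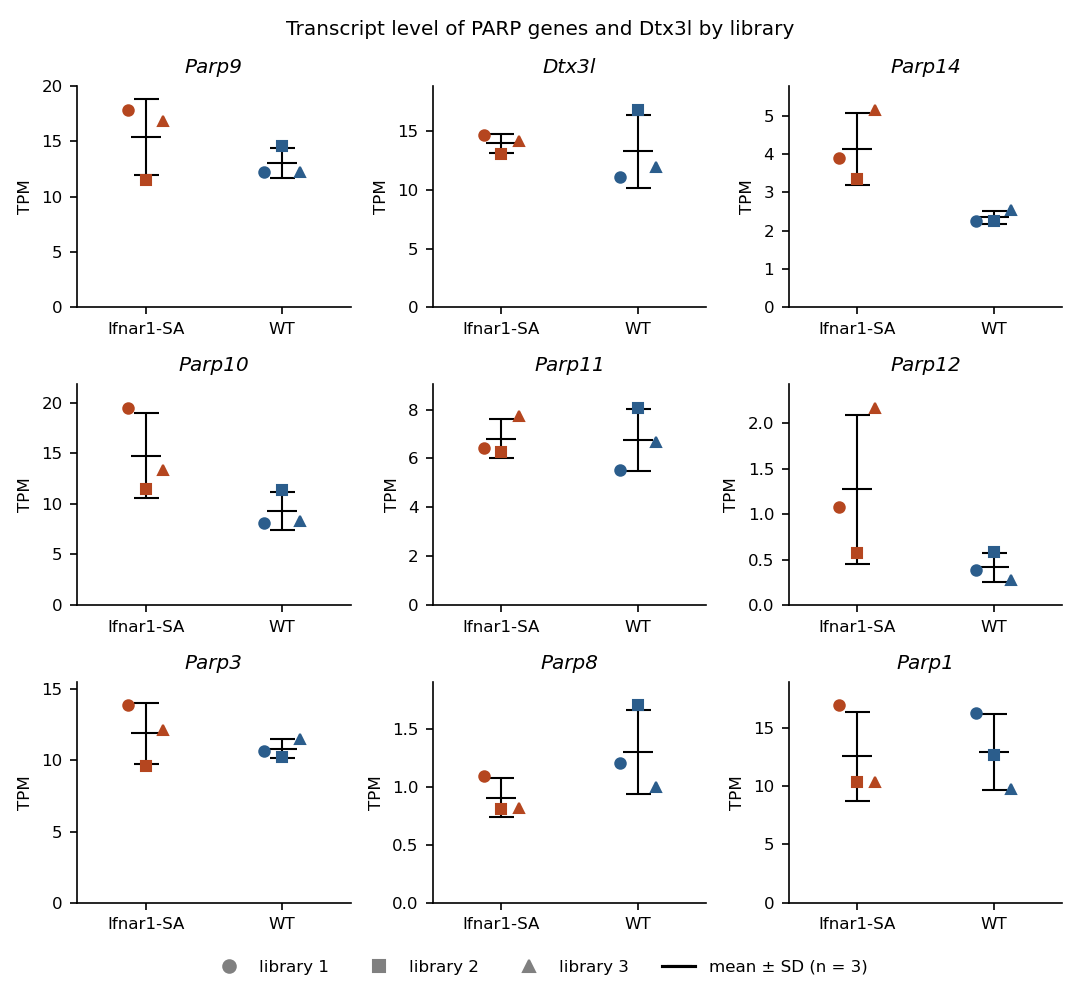
Level of each of the 9 genes in TPM (vertical axes start at 0 and differ in range), with Ifnar1-SA libraries left and WT libraries right; symbols mark the library number within a genotype, and bars show mean ± SD of 3 libraries. The genotypes separate without overlap for Parp14, at 3.34 to 5.16 TPM against 2.24 to 2.54 TPM, and narrowly for Parp10.

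Parp14, Dtx3l and Parp9 lie side by side on chromosome 16 of GRCm38, and of these only Parp14 separated the genotypes without overlap. Parp14 (35832874 to 35871544, minus strand) had levels of 3.91, 3.34 and 5.16 TPM in Ifnar1-SA libraries, against 2.26, 2.24 and 2.54 TPM in WT libraries. Every Ifnar1-SA library was above every WT library, and the WT libraries were close together. The ratio of means was 1.76, and the log2 fold change was 0.60 with a standard error of 0.18 and a 95% interval of 0.18 to 1.02 (limma adjusted p = 0.9997). Leaving out Ifnar1-SA 3, its highest library, gave a log2 fold change of 0.46, and the unadjusted limma p was then above 0.05. Leaving out both Ifnar1-SA 1 and WT 2 gave 0.61, with the unadjusted p still below 0.05. By size of log2 fold change Parp14 ranked 327 of the 12141 genes tested.

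Dtx3l (35926511 to 35939151, minus strand), the ubiquitin ligase gene, had levels of 14.6, 13.1 and 14.2 TPM in Ifnar1-SA libraries and of 11.1, 16.8 and 11.96 TPM in WT libraries. The WT libraries lay on both sides of the Ifnar1-SA libraries, with WT 2 highest of all 6. Its log2 fold change was 0.09 with a standard error of 0.18 and a 95% interval of −0.35 to 0.52 (limma adjusted p = 0.9997), and it was −0.02 without WT 1 and 0.23 without both Ifnar1-SA 1 and WT 2. Parp9 (35938470 to 35972605, plus strand), whose protein has macrodomains and is the DTX3L partner, was at 17.9, 11.5 and 16.8 TPM in Ifnar1-SA libraries and at 12.2, 14.6 and 12.3 TPM in WT libraries. Ifnar1-SA 1 and Ifnar1-SA 3 were above all WT libraries and Ifnar1-SA 2 was below all of them. Its log2 fold change was 0.21 with a standard error of 0.20 and a 95% interval of −0.26 to 0.67 (limma adjusted p = 0.9997). Leaving out Ifnar1-SA 2 gave 0.39, leaving out Ifnar1-SA 1 gave 0.09, and leaving out both Ifnar1-SA 1 and WT 2 gave 0.17. The annotated genes Parp9 and Dtx3l run in opposite directions and share 682 bases at their starts (35938470 to 35939151). The sources used here do not say whether reads were assigned by strand, so signal in that stretch could count towards either gene.

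Within a library, the log2 ratio of (TPM + 1) of Parp14 over Dtx3l was −1.67, −1.70 and −1.30 in Ifnar1-SA and −1.89, −2.46 and −1.87 in WT. The ratio was higher in every Ifnar1-SA library than in every WT library, by 0.52 on average (exact two-sided permutation p = 0.1, the smallest that 3 against 3 libraries allow, and 0.3 adjusted over the 3 ratios within the cluster). For Parp14 over Parp9 the difference was 0.40 (exact permutation p = 0.2) and for Parp9 over Dtx3l it was 0.12 (exact permutation p = 0.5), and the libraries of the genotypes overlapped for both. These 3 ratios were chosen after the values of the genes had been seen. The nearest protein-coding genes outside the cluster were not separated between the genotypes. Hspbap1 was at 3.93 ± 1.20 TPM in Ifnar1-SA and 4.45 ± 1.07 TPM in WT, and Dirc2 at 2.34 ± 0.884 and 3.18 ± 2.003 TPM. On the other side Kpna1, an importin gene, was at 6.30 ± 1.17 and 7.69 ± 0.370 TPM, and Wdr5b at 1.70 ± 0.512 and 1.68 ± 0.257 TPM (SD, n = 3 each, limma adjusted p = 0.9997 for each of the 4).

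**Figure D2:**
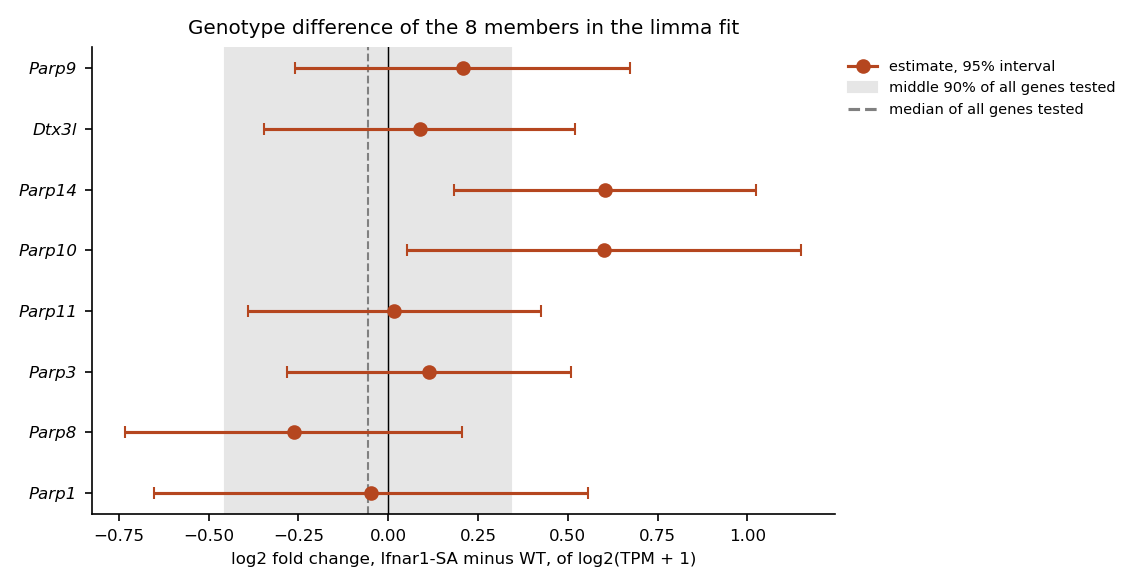
Log2 fold change (Ifnar1-SA minus WT) of the 8 members in the limma fit with 95% intervals, over a grey band that holds the middle 90% of all genes tested (−0.45 to 0.34) and a dashed line at their median (−0.06). The intervals of Parp14 and Parp10 lie above 0 and the other 6 include it.

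Outside the cluster, Parp10 and Parp12 had higher mean levels in Ifnar1-SA, and Parp11 had nearly equal means. Parp10 (chromosome 15, 76231174 to 76243441, minus strand), a single-unit ADP-ribosyltransferase linked to cell proliferation, was at 19.5, 11.5 and 13.3 TPM in Ifnar1-SA libraries, against 8.11, 11.4 and 8.29 TPM in WT libraries. All Ifnar1-SA libraries were above all WT libraries, but Ifnar1-SA 2 and WT 2 were nearly level. The ratio of means was 1.59, and the log2 fold change was 0.60 with a standard error of 0.23 and a 95% interval of 0.05 to 1.15 (limma adjusted p = 0.9997). Leaving out Ifnar1-SA 1, the highest library, took the log2 fold change to 0.39, which is more than 1.5 times lower. Leaving out WT 1, WT 3 or Ifnar1-SA 3 gave 0.52, 0.54 and 0.65. The unadjusted limma p was above 0.05 when any 1 of these 4 libraries was left out, and below it, with a log2 fold change of 0.54, without both Ifnar1-SA 1 and WT 2.

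Parp12 (chromosome 6, 39086410 to 39118349, minus strand), a zinc finger ADP-ribosyltransferase known to restrict RNA viruses, was the lowest of the 9 genes over all libraries. It was at 1.07, 0.575 and 2.17 TPM in Ifnar1-SA libraries and at 0.387, 0.580 and 0.271 TPM in WT libraries. Ifnar1-SA 2 lay within the WT range, just under WT 2, and Ifnar1-SA 3 was the highest. The ratio of means was 3.08, and the mean log2(TPM + 1) differed by 0.63 (exact two-sided permutation p = 0.2). Without Ifnar1-SA 3 the difference was 0.36, without both Ifnar1-SA 1 and WT 2 it was 0.75, and with a pseudocount of 0.1 in place of 1 it was 1.29. In the limma fit without a filter on low values, Parp12 had an unadjusted p under 0.05 and an adjusted p of 0.9999. Below 1 TPM the pseudocount takes up much of the value, and the number of reads behind these levels is unknown.

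Parp11 (chromosome 6, 127446840 to 127494261, plus strand) encodes a WWE-domain ADP-ribosyltransferase. In published work on human cells, PARP11 modifies the ubiquitin ligase subunit β-TrCP, which takes the interferon receptor chain to degradation. It was at 6.45, 6.27 and 7.72 TPM in Ifnar1-SA libraries and at 5.54, 8.09 and 6.67 TPM in WT libraries, with the genotypes interleaved. The log2 fold change was 0.02 with a standard error of 0.17 and a 95% interval of −0.39 to 0.43 (limma adjusted p = 0.9997), and it was −0.10 without WT 1, −0.06 without Ifnar1-SA 3 and 0.17 without both Ifnar1-SA 1 and WT 2.

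Promoter windows of RefSeq on GRCm38.p6, from 250 bases before to 50 bases after an annotated start, were found for 6 of the 9 genes (7 windows, since Parp11 has a pair of starts). They were searched on both strands for the core of the interferon-stimulated response element, written GAAANNGAAA or TTTCNNTTTC, and for the gamma-activated sequence, written TTCNNNGAA, which reads alike on both strands. The first is held by 3.44% of all 32851 windows and the second by 8.30%. Among the windows of these genes, the upstream window of Parp11 had 1 match to each, and the windows of Parp1, Parp3, Parp8, Parp12, Dtx3l and the second Parp11 start had 0. The response element match covers the bases 44 to 35 before the start and the gamma-activated match the bases 37 to 29, so they share 3 bases. The 250 bases before the start are shown for Parp11 at chr6:127446590-127446839 (plus strand), with both matches in capitals, because it was the only window with a match. Beside it stands Parp12 at chr6:39118350-39118599 (minus strand), the gene with the highest ratio of means. Of the 250 bases before the start, 127 lie in annotated exons for Parp12 and 179 for Dtx3l, against 0 for the Parp11 window shown.
Parp11: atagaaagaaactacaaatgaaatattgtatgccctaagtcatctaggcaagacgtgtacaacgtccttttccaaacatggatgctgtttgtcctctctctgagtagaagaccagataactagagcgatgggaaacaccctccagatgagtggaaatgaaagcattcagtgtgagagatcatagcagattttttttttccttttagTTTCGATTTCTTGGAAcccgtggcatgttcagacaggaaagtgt
Parp12: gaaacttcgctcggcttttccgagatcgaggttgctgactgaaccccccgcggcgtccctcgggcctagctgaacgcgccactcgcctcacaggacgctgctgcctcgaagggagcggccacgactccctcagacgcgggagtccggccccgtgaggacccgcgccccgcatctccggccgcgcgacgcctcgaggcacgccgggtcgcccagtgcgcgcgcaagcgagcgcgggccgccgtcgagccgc
A match describes the letters in the window, and a window without one says nothing about the factors. Windows of Parp9, Parp10 and Parp14 were not analysed here, so the matches were not set against the fold changes.

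Parp3, Parp8 and Parp1 showed no separation between the genotypes. Parp3 (chromosome 9, 106470322 to 106476949, minus strand), which acts in the repair of DNA double-strand breaks, was at 13.9, 9.62 and 12.2 TPM in Ifnar1-SA libraries and at 10.7, 10.2 and 11.5 TPM in WT libraries. The Ifnar1-SA libraries lay on both sides of the WT libraries. Its log2 fold change was 0.11 with a 95% interval of −0.28 to 0.51 (limma adjusted p = 0.9997), and it was −0.03 without both Ifnar1-SA 1 and WT 2. Parp8 (chromosome 13, 116854820 to 117025537, minus strand), a member with few known functions, was at 1.096, 0.804 and 0.819 TPM in Ifnar1-SA libraries and at 1.20, 1.70 and 0.998 TPM in WT libraries. Ifnar1-SA 1 lay within the WT range and the other two below it. Its log2 fold change of −0.26, with a 95% interval of −0.73 to 0.21 (limma adjusted p = 0.9997), was the lowest of the 8 members, and it was negative in all 16 alternatives that gave a value, at −0.14 without WT 2 and −0.21 without both Ifnar1-SA 1 and WT 2.

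Parp1 (chromosome 1, 180568924 to 180601254, plus strand), the enzyme of DNA break signalling, was at 16.9, 10.4 and 10.3 TPM in Ifnar1-SA libraries and at 16.3, 12.7 and 9.77 TPM in WT libraries. Library 1 of each genotype was high and the others lower. The log2 fold change was −0.05 with a standard error of 0.26 and a 95% interval of −0.65 to 0.56 (limma adjusted p = 0.9997). It turned to 0.01 with TMM scaling, 0.01 with median-of-ratios scaling and 0.02 with quantile scaling, and it was −0.27 without both Ifnar1-SA 1 and WT 2. Each other gene was also set against Parp1 of the same library, as the log2 ratio of (TPM + 1), in which the added 1 weighs most on genes of low level. Parp10 over Parp1 was at 0.20, 0.13 and 0.34 on the log2 scale in Ifnar1-SA and at −0.92, −0.14 and −0.21 in WT, so that Parp10 stood above Parp1 in all 3 Ifnar1-SA libraries and below it in all 3 WT libraries. The difference was 0.65 (exact permutation p = 0.1, two-sided, and 0.533 adjusted over the 8 ratios), and it was 0.40 without WT 1. Parp14 over Parp1 was at −1.87, −1.39 and −0.88 in Ifnar1-SA and at −2.41, −2.08 and −1.61 in WT. These ratios overlapped, since Ifnar1-SA 1 was below WT 3, and the difference was 0.65 (exact permutation p = 0.2, adjusted 0.533). It was 0.40 without Ifnar1-SA 3, 0.90 without Ifnar1-SA 1 and 0.82 with a pseudocount of 0.1. The ratio of Parp12 differed by 0.68 (exact permutation p = 0.2), by 0.30 without Ifnar1-SA 3 and by 1.34 with a pseudocount of 0.1, and the other 5 ratios by −0.21 to 0.26 (exact permutation p of 0.5 to 0.8).

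**Figure D3:**
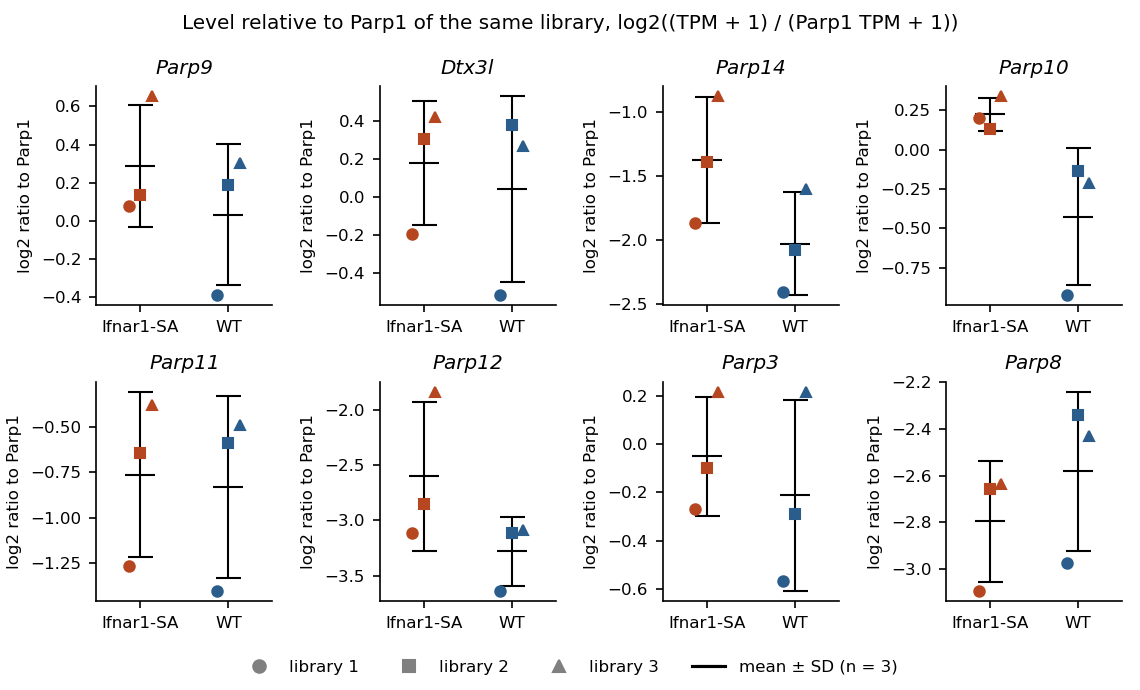
Log2 ratio of each gene to Parp1 of the same library, with Ifnar1-SA left and WT right; axes differ in range, symbols mark the library number, and bars show mean ± SD of 3 libraries. Parp10 is the only one of the 8 ratios whose Ifnar1-SA libraries (0.13 to 0.34) all lie apart from the WT libraries (−0.92 to −0.14).

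Ordered by mean level in Ifnar1-SA, Parp9 came first at 15.4 ± 3.43 TPM, followed by Parp10 at 14.8 ± 4.23, Dtx3l at 13.97 ± 0.808, Parp1 at 12.5 ± 3.79 and Parp3 at 11.9 ± 2.13 TPM (SD, n = 3). The library ranges of these 5 genes overlapped. Parp11 at 6.81 ± 0.790 TPM and Parp14 at 4.13 ± 0.932 TPM each had a range apart from its neighbours, and Parp12 at 1.27 ± 0.817 TPM and Parp8 at 0.906 ± 0.164 TPM overlapped with each other. In WT the order was Dtx3l at 13.3 ± 3.10 TPM, Parp9 at 13.01 ± 1.35, Parp1 at 12.9 ± 3.26, Parp3 at 10.8 ± 0.662 and Parp10 at 9.27 ± 1.87 TPM (SD, n = 3), again with overlapping neighbours. Below them Parp11 at 6.77 ± 1.28 TPM, Parp14 at 2.35 ± 0.168 TPM, Parp8 at 1.30 ± 0.361 TPM and Parp12 at 0.413 ± 0.156 TPM had ranges that did not meet. Parp10 thus had the second highest mean in Ifnar1-SA and the fifth in WT.

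The genes varied in different patterns over the 6 libraries. As a description over libraries that also share their genotype, Parp14 and Parp12 had Pearson's r of 0.91 (Spearman's rho 0.60) for log2(TPM + 1), and r of 0.85 for deviations from the genotype means. For the neighbours Parp9 and Dtx3l, r was 0.63 (rho 0.66) and 0.60 for the deviations, and for Parp14 and Dtx3l it was 0.23 (rho 0.09) and 0.04 for the deviations. Among 7237 candidate genes, those whose mean reached 5 TPM without the members and without predicted gene models named Gm or ending in Rik, the 4 most like Parp14 were Isg15 (r = 0.995), Ifi27l2a (0.990), Xaf1 (0.979) and Slfn1 (0.974). All 4 are known interferon-stimulated genes. Isg15, which encodes a ubiquitin-like modifier, was at 36.9, 25.6 and 103 TPM in Ifnar1-SA libraries and at 9.82, 9.82 and 11.7 TPM in WT libraries, so Ifnar1-SA 3 was highest and Ifnar1-SA 2 lowest of its genotype, as for Parp14. The genes most like Parp12 were Trim12c (r = 0.977), the nucleic acid sensor gene Zbp1 (0.974), Napsa (0.957) and Tmem205 (0.954). Those most like Parp9 were the securin gene Pttg1 (0.985), Mir7237 (0.984, and listed at 0 TPM in 3 libraries), Mvb12a (0.982) and Clptm1l (0.979). Those most like Dtx3l were the phosphatase gene Dusp5 (0.988), Tmem238 (0.982), the corepressor gene Ctbp1 (0.973) and Mindy2 (0.967). With 6 libraries and this many candidates, high coefficients are common, and they are given to name the genes only.

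Genes that act around these enzymes were counted in the same fit. Over all 12141 genes tested, 4499 were higher and 7642 lower by mean log2 value in Ifnar1-SA, with a median log2 fold change of −0.06. Of the 7 tested genes in the wider PARP family 0 passed the adjusted threshold, 1 was higher and 6 lower by mean log2 value in Ifnar1-SA, and the median log2 fold change was −0.20. Tiparp, which encodes PARP7 and restrains interferon induction, was at 11.8, 11.6 and 8.75 TPM in Ifnar1-SA libraries and at 10.2, 20.3 and 14.8 TPM in WT libraries. Parp16, an enzyme of the endoplasmic reticulum, was at 11.9 ± 2.05 TPM in Ifnar1-SA and 15.2 ± 4.66 TPM in WT (SD, n = 3 each). Zc3hav1, which encodes the catalytically inactive antiviral protein PARP13, was the member with the higher mean, at 25.6 ± 4.01 TPM in Ifnar1-SA and 23.7 ± 3.33 TPM in WT. Of the 9 tested genes that remove or read ADP-ribose, 1 was higher and 8 lower, with a median of −0.05. Among them Rnf146, a ubiquitin ligase that recognises ADP-ribose chains, was at 11.8, 10.4 and 10.8 TPM in Ifnar1-SA libraries and at 12.2, 13.3 and 12.2 TPM in WT libraries, and Parg, which cleaves the chains, was at 5.02 ± 1.06 and 5.92 ± 0.690 TPM. All Rnf146 values of Ifnar1-SA were below those of WT (limma adjusted p = 0.9997). This held for 1 of the 9 genes, beside 3.8% of all genes tested. Of the other Deltex ligases Dtx2 was at 6.52 ± 0.699 TPM in Ifnar1-SA and 6.87 ± 0.310 TPM in WT and Dtx3 at 11.4 to 12.2 TPM in Ifnar1-SA and 8.99 to 13.7 TPM in WT, while Dtx1 and Dtx4 were under 0.4 TPM in every library.

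Among 12 tested genes of NAD supply and use, 6 were higher and 6 lower, with a median of 0.00, and 0 passed the adjusted threshold. Cd38, an enzyme of the cell surface that consumes NAD, was at 2.21, 2.33 and 1.97 TPM in Ifnar1-SA libraries and at 4.15, 3.66 and 2.54 TPM in WT libraries. Every Ifnar1-SA library was below every WT library, with a log2 fold change of −0.47 and a standard error of 0.19 (limma adjusted p = 0.9997). Such separation was seen in 1 of the 12 genes, beside 3.8% of all genes tested. Qprt, an enzyme of NAD synthesis, was at 3.67 ± 0.979 TPM in Ifnar1-SA and 3.07 ± 0.224 TPM in WT. Of 9 genes listed as PARP1 partners or repair genes, 2 were higher and 7 lower, with a median of −0.15. Among all genes tested, 37.1% were higher. Hpf1, whose protein directs PARP1 towards serine residues, was at 79.9, 83.2 and 73.8 TPM in Ifnar1-SA libraries and at 98.5, 90.6 and 92.5 TPM in WT libraries, without overlap (limma adjusted p = 0.9997). It was the only gene of the 9 without overlap, beside 3.8% of all genes tested that lay lower in this way. Cat, which encodes catalase and is not a repair enzyme, was at 16.1 ± 2.16 TPM in Ifnar1-SA and 18.1 ± 3.08 TPM in WT.

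The interferon transcription factors stood highest among these lists, with a median log2 fold change of 0.50 over 7 genes, of which 4 were higher, 3 lower and 0 past the adjusted threshold. Irf7, which amplifies interferon responses, was at 28.1, 11.5 and 42.2 TPM in Ifnar1-SA libraries and at 2.01, 3.44 and 2.95 TPM in WT libraries (limma adjusted p = 0.244). Its libraries did not overlap, as in 1 of the 7 genes in this direction, beside 1.97% of all genes tested. Stat2 and Irf9, which act in type I interferon signalling, were at 21.7 ± 6.33 and 35.4 ± 7.78 TPM in Ifnar1-SA and at 13.9 ± 3.87 and 24.9 ± 6.82 TPM in WT (SD, n = 3 each). In both of these genes Ifnar1-SA 2 was within the WT range, as it was for Parp12, whereas for Parp9 it was below that range. Irf8 was at 59.1, 48.8 and 37.0 TPM in Ifnar1-SA libraries and at 74.7, 79.8 and 60.8 TPM in WT libraries, all lower, with a log2 fold change of −0.58 (limma adjusted p = 0.9997). It was the only gene of the 7 lower without overlap, beside 3.8% of all genes tested. Bst2, an interferon target that tethers virus particles, was at 483, 393 and 675 TPM in Ifnar1-SA libraries and at 268, 257 and 212 TPM in WT libraries (limma adjusted p = 0.747).

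**Figure D4:**
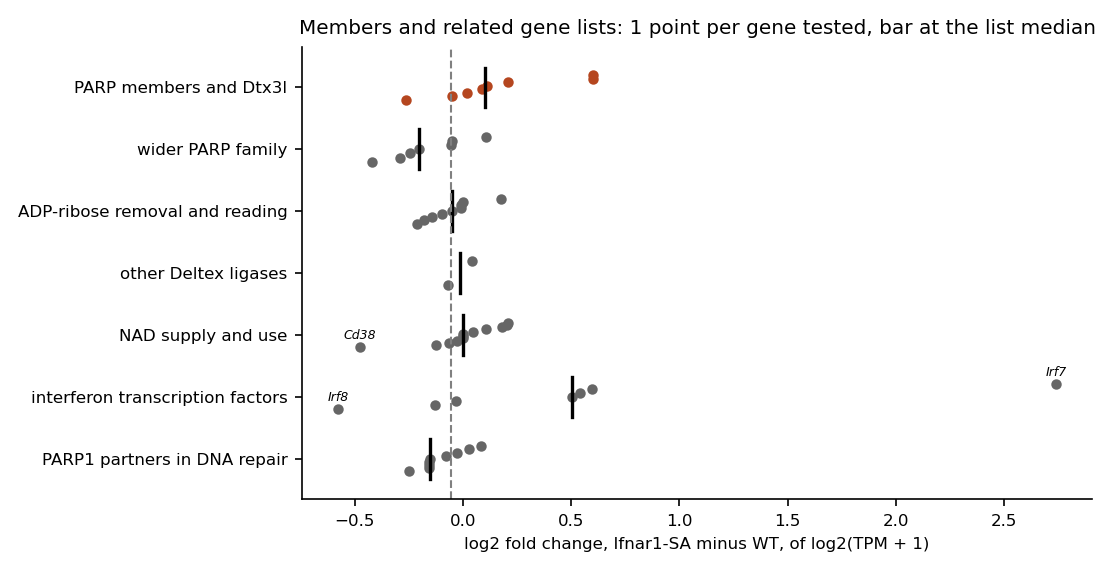
Log2 fold change (Ifnar1-SA minus WT) of each tested gene in the members' list and the 6 related lists; each point is a gene, black bars are list medians and the dashed line is the median of all genes tested (−0.06). The members' median lies at 0.10 and that of the interferon transcription factors at 0.50, where Irf7 lies far to the right.

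Markers of other cell types were low or mixed beside these values. Summed over the 10 CD8 T and NK cell markers, levels were 2429 to 4124 TPM in Ifnar1-SA and 1356 to 3858 TPM in WT, mostly from Nkg7 and Gzmb, and 5 of the 10 were under 1 TPM in every library. The 10 neutrophil and mast cell markers summed to 18.5 to 23.6 TPM in Ifnar1-SA and 8.47 to 13.3 TPM in WT without overlap, but 7 of them, including Mpo and Elane, were under 1 TPM in every library and S100a8 was at 0 TPM in 4 of 6. Ly6g, the one marker of that list without overlap, was at 14.2, 15.6 and 21.4 TPM in Ifnar1-SA libraries and 6.55, 6.46 and 6.52 TPM in WT libraries. The 7 B and plasma cell markers summed to 174 to 235 TPM in Ifnar1-SA and 238 to 268 TPM in WT, nearly all from Xbp1, with Pax5 at most 0.250 TPM, and the 10 macrophage and dendritic cell markers to 13.04 to 16.3 and 11.3 to 20.2 TPM. Their part in the levels of Parp14 and Parp10 was not tested.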

How the data were processed

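TPM values per gene were deposited by the authors in 1 table, for 6 mRNA-seq libraries of mouse CD4 T cells cultured towards Treg cells, for which the submitters' processing notes name Salmon and the genome build mm10 (GRCm38). Salmon's version, the annotation, the strand setting and the read depth were not given in the sources used here. Each of the 6 columns sums to 1e+06, so a gene with a large share lowers the TPM of the others, and no counting interval could be given.

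From these values log2(TPM + 1) was tested for the 12141 genes whose mean reached 1 TPM, by limma 3.58.1 with an intensity trend (R 4.3.3), two-sided, without a replicate block, with Benjamini-Hochberg adjustment over all genes tested and a threshold of 0.05. Parp12, under that mean, and ratios within a library were tested by exact permutation (scipy 1.17.1), which cannot go below 0.1 for 3 against 3 libraries. For genes of low level, a fold change on this scale is smaller than that of the TPM values. The procedure was tested on simulated data with changes larger on this scale than those of the members, so recovery of changes of their size was not tested. Ratios of means are of TPM without a pseudocount.

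The members, lists, tests and alternatives were chosen with earlier results of these data known. The rule for names took all members, the 2 genes of smallest p in each related list, the 4 genes most like each of Parp9, Dtx3l, Parp14 and Parp12 across libraries, the 2 protein-coding neighbours on each side of the cluster, and Irf7, Isg15 and Bst2. Zc3hav1, Stat2, Irf9, Dtx1, Dtx4, Eif2s3y and the single markers were named after their values were seen. A planned comparison of protein sequences was not run. Gene positions are from GENCODE M21 (GRCm38), matched by symbol. Python 3.11.15, pandas 2.3.3, numpy 2.4.6 and matplotlib 3.10.9 were used for tables and figures. Alternatives were pseudocounts of 0.1 and 0.5, no filter, a minimum mean of 5 TPM, scaling by TMM, by median-of-ratios size factors or to equal quantiles, no trend, array weights, a replicate block, each library left out, and both Ifnar1-SA 1 and WT 2 left out.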

Additional observations from a re-analysis of the deposited data

How the results depend on the processing

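The count of members past the adjusted threshold was 0 in all 17 alternatives, with limma. Over all genes it was 7, and 15 and 14 with pseudocounts of 0.1 and 0.5, 1 with a mean of at least 5 TPM, 12 with array weights, 15 to 28 with 1 library left out and 0 without both Ifnar1-SA 1 and WT 2. Members with an unadjusted p under 0.05 numbered 2, and 3 with no filter on low values, which adds Parp12, 1 with a mean of at least 5 TPM, which removes Parp14, and 0 to 2 with 1 library left out. With a replicate block 0 genes and 1 member (Parp14) passed these thresholds. Between same-numbered libraries, r of the deviations from the genotype means was −0.112, −0.106 and 0.151. Deviations within a genotype of 3 libraries sum to 0, so these values cannot tell whether same-numbered libraries were handled together. The labels do not say either.

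Parp14, Parp10, Parp12 and Parp9 were higher in Ifnar1-SA, and Parp8 lower, in every alternative that gave a value. Parp14 ranged from 0.46 to 0.77 and Parp10 from 0.39 to 0.76. Parp1 turned to 0.012 with TMM scaling, 0.0083 with median-of-ratios scaling and 0.018 with quantile scaling and ranged from −0.27 to 0.12 with 1 library left out. In those runs Parp11 ranged from −0.10 to 0.14 and Dtx3l from −0.024 to 0.26. Parp3 turned to −0.032 without both Ifnar1-SA 1 and WT 2. Relative to Parp1, Parp3 ranged from −0.014 to 0.38, Parp11 from −0.22 to 0.32 and Dtx3l from −0.15 to 0.32 with 1 library left out, while Parp14 ranged from 0.40 to 0.90 and Parp12 from 0.30 to 0.93. The cause was not tested. Read numbers are unknown, so precision at the low levels of Parp12 and Parp8 cannot be given.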
